A study of Mus musculus with 12 samples.

Results

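The T cells of the mouse colon epithelium were compared between an interleukin-23 receptor (IL23R) knockout and its control in single-cell RNA sequencing, with 1 library per genotype. A cell was kept when the 3 CD3 genes Cd3d, Cd3e and Cd3g together gave 3 or more unique molecular identifiers (UMIs, each standing for 1 captured transcript). That rule kept 3653 of 3711 cells (98.4%) of the control library and 3296 of 3452 cells (95.5%) of the knockout library, 6949 cells in all out of 32763 in the 12 libraries of the series. The same rule kept 29623 cells across the 12 libraries. Cells next to the limit were few: 27 control and 40 knockout cells had exactly 2 CD3 UMIs, and 77 and 59 had exactly 3.

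The study transferred Th1 cells, the interferon gamma producing kind of CD4 helper T cell, into recipient mice and took T cells from spleen, small intestine lamina propria, colon lamina propria and colon epithelium. Control donor cells carried 1 wild-type and 1 eGFP-replaced allele (Il23r wt/eGFP) and knockout donor cells carried the eGFP allele on both chromosomes (Il23r eGFP/eGFP), so both genotypes share at least 1 reporter allele and the control is heterozygous. The labels call all cells CD4 T cells. The strain, age and sex of the recipients, the lymphocytes the recipients still had, and the time after transfer are not given. Both epithelial libraries belong to the second of 2 batches named in the deposited cell table. The labels do not say how many animals a library holds.

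IL-23 is a cytokine made by myeloid cells of the gut, and its receptor pairs the IL23R chain with the IL-12 receptor beta 1 chain to signal mainly through STAT3. In CD4 T cells this signal is known for sustaining IL-17 and IL-22 production and for its part in T cell driven colitis. T cells inside the epithelium sit between epithelial cells, often carry the integrin CD103 (Itgae), hold granzymes ready and, when their antigen receptor is triggered, release chemokines such as CCL3, CCL4 and XCL1 that draw in other immune cells.

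With 1 library per genotype there is no replicate check, no test was made, and genotype cannot be told apart from library, animal or the handling of the tissue. Levels are given as CPM, the UMI count of a gene scaled to 1000000 UMIs of the kept cells, with Poisson 95% intervals (exact). Conditional intervals, also exact, stand beside ratios, and exact binomial ones beside shares of cells. All of these cover counting error only. The kept control cells held 11568743 UMIs (median 2741 per cell, 1242 genes) and the kept knockout cells 9540815 UMIs (median 2535.5 per cell, 1177 genes). The median share of mitochondrial UMIs was 1.99% in control and 1.80% in knockout cells. The 2 epithelial libraries had 24 cell barcodes in common, within the 3 to 25 that either had in common with another library.

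The kept cells carried the Cd4 of the labelled cell type, and the knockout library also held more RNA of epithelial cells. The CD3 genes chose the cells, so their level, alone or within the T cell marker sum, is no check of the label. The CD3 median was 13 UMIs per cell in both libraries. The 12 measured T cell markers summed to 8930 CPM in control and 9239 CPM in knockout cells, with 7 of them higher in the knockout and a median log2 ratio of 0.07 (0.01 with trimmed-mean scaling and -0.01 with median-ratio scaling). Cd4, the coreceptor named by the labels, stood at 293 CPM (284 to 304) and 386 CPM (374 to 399), 1.32-fold higher in the knockout, whereas the CD8 genes Cd8a and Cd8b1 summed to 14.7 and 21.9 CPM. The constant genes of the T cell receptor were not analysed here. The dendritic cell list summed to 212 and 322 CPM, mostly as the MHC class II genes Cd74, H2-Ab1, H2-Aa and H2-Eb1, and the natural killer and innate lymphoid list to 214 and 229 CPM. Of the macrophage list, which summed to 201 and 243 CPM, the defining genes C1qa, C1qb, C1qc, Adgre1 and Csf1r were at 0 in both libraries. The neutrophil list summed to 1.04 and 17.3 CPM with S100a8 and S100a9 at 0 in both, the mast cell and basophil list to 0.951 and 5.45 CPM, the B cell list to 2.51 and 3.98 CPM, and the stromal and endothelial list to 35.1 and 26.9 CPM. At these low levels the neutrophil list was 16.7-fold higher in the knockout (9.29 to 32.9) and the mast cell and basophil list 5.73-fold higher (2.95 to 12.2). Most of the former was Mmp9 (0.605 and 11.3 CPM). Most of the latter was Kit (0.951 and 3.25 CPM), with Cpa3 and Fcer1a at 0 in both libraries. No cell type is read from these 2 ratios. The epithelial list had the highest knockout level of these other cell types, at 76.1 CPM in control and 1917 CPM in knockout cells, and is described further down.

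Il23r itself (ENSMUSG00000049093) gave 7 UMIs in the control and 3 UMIs in the knockout, a knockout to control ratio of 0.520 with an interval of 0.0867 to 2.28. These counts are too few to check the genotype label, and no source used here says what the eGFP allele leaves of the 3′ end. The receptor's partner chain Il12rb1 was at 51.6 and 75.9 CPM (1.47-fold higher in the knockout) and Il12rb2, the signalling chain of the IL-12 receptor, at 49.2 and 80.6 CPM (1.64-fold higher). Of the 9 measured genes of the IL-23 and IL-12 receptor pathway, 3 were higher, with a median log2 ratio of -0.13. Stat3 stood at 129 and 120 CPM. Socs3, a feedback inhibitor that STAT3 induces, stood at 94.4 CPM in control and 46.9 CPM in knockout cells, 2.01-fold lower (1.80 to 2.25).

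Across the 5131 genes with a mean of 20 CPM or more, the 2 libraries were close: the median log2 ratio of knockout to control (computed after adding 1 CPM) was -0.02, its SD over genes was 0.42, and 46.9% of genes were higher in the knockout. A knockout level at least 2-fold above control was found for 43 genes (0.838% of those measured) and at least 2-fold below for 29 genes (0.565%). These percentages are the background against which the counts on each gene list are to be read. Of the 43 higher genes, 11 were on the epithelial list. The chemokines, some egress and S100 genes and the cell cycle genes lay on the lower side. Hspa1a, Hspa1b, Dnajb1, Fos, Jun and the epithelial genes lay on the higher side.

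**Figure D1:**
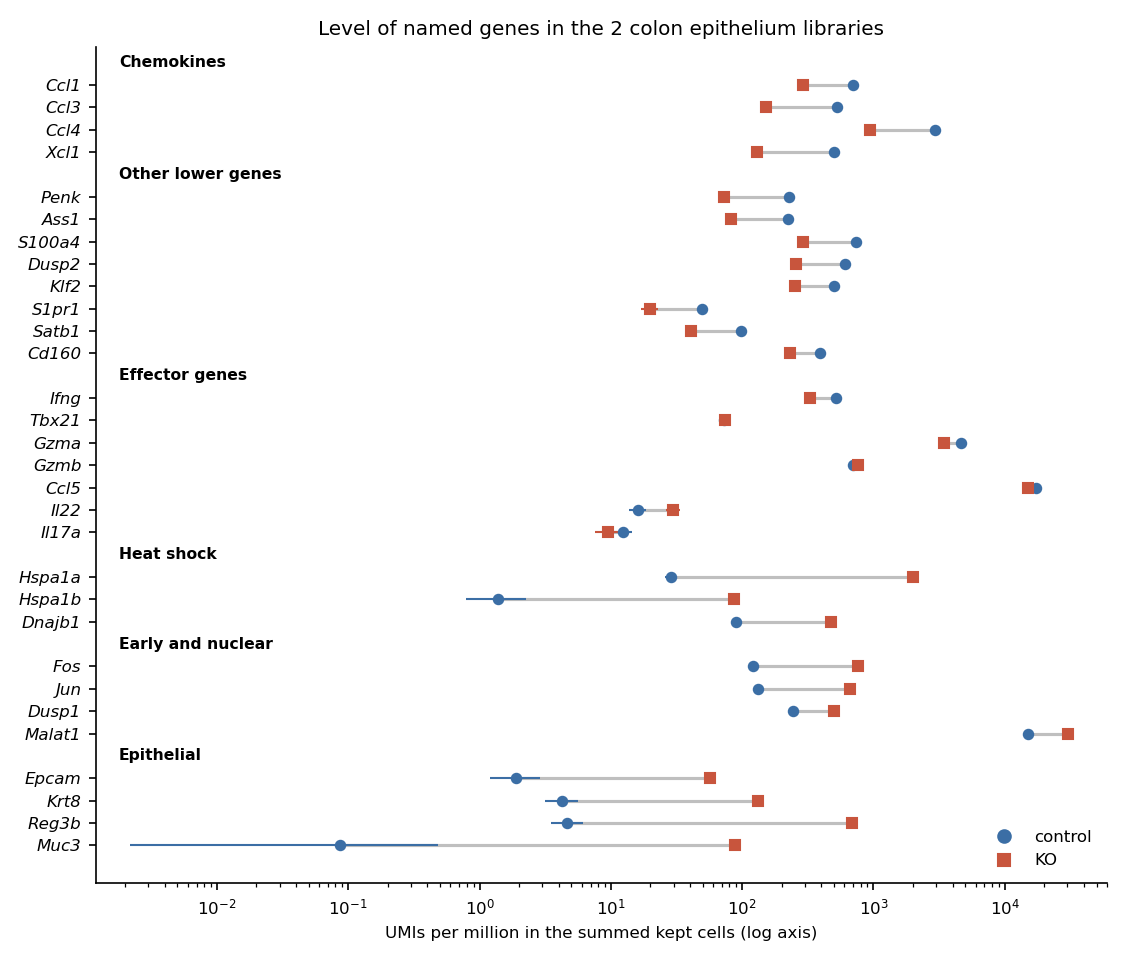
Levels of named genes in the T cells of the colon epithelium, in CPM on a log axis, with 1 point for the control and 1 for the knockout library and bars for exact Poisson 95% intervals. The chemokines Xcl1, Ccl3, Ccl4 and Ccl1 lie at 501, 531, 2956 and 702 CPM in control and at 130, 151, 937 and 293 CPM in knockout cells, while Hspa1a lies at 28.9 and 1989 CPM.

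The activation chemokines gave the widest gap on the lower side. Xcl1 (ENSMUSG00000026573, chr1:164931644-164935527 in GRCm38), whose product attracts cross-presenting dendritic cells, stood at 501 CPM (488 to 514) in control and 130 CPM (123 to 137) in knockout cells, 3.86-fold lower (3.63 to 4.11). Ccl3 (ENSMUSG00000000982, chr11:83647844-83649355) stood at 531 CPM (517 to 544) and 151 CPM (143 to 159), 3.52-fold lower (3.33 to 3.73). Ccl4 (ENSMUSG00000018930, chr11:83662584-83664683), like Ccl3 a macrophage inflammatory protein, stood at 2956 CPM (2924 to 2987) and 937 CPM (918 to 957), 3.15-fold lower (3.08 to 3.23). Ccl1, a ligand of CCR8, stood at 702 CPM (687 to 717) and 293 CPM (282 to 304), 2.40-fold lower (2.30 to 2.50). Of the 5 measured genes of the list, none was higher and these 4 were at least 2-fold lower, against a background of 0.565%. The list's median log2 ratio was -1.66. The fifth, Ccl5, a chemokine that effector T cells store, was at 17277 and 14951 CPM, a log2 ratio of -0.21.

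Part of the chemokine gap lay in the number of cells with these transcripts and part in the amount per positive cell. After each cell was thinned to 1500 UMIs, which left 3325 control and 2960 knockout cells, Ccl4 was seen in 32.8% of control and 22% of knockout cells, and the positive cells held a mean of 13.1 and 6.06 UMIs. Xcl1 was seen in 7.76% and 6.25% of cells with 7.74 and 2.83 UMIs per positive cell. Ccl3 was seen in 9.68% and 5.57% of cells with 7.23 and 3.78 UMIs per positive cell. Without thinning, 40.8% of control and 28.6% of knockout cells had a Ccl4 UMI. As a measure of free RNA, the epithelial cells of the same knockout library were used (CD3 at 0 and 20 or more epithelial UMIs, 48 cells, median 2251.5 UMIs, 39 after thinning). Of those 39 cells, 1 had a Ccl4 UMI and none had a Ccl3 or Xcl1 UMI, and the control library offered only 4 such cells.

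Most chemokine UMIs came from few cells. Cells with 20 or more UMIs of Ccl1, Ccl3, Ccl4 and Xcl1 together, a limit set after the values were seen, made up 335 of 3653 control cells (9.17%, 8.25 to 10.2%) and 131 of 3296 knockout cells (3.97%, 3.33 to 4.70%). Within 5 UMIs of the limit, on either side, lay 82 control and 47 knockout cells. After thinning the shares were 7.10% and 2.60%. With a limit of 10 UMIs they were 13% and 6.31%, and with 50 UMIs 6.08% and 1.91%. The chemokine-rich cells held 90.6% of the 4 genes' UMIs in the control and 76.6% in the knockout.

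Levels within the chemokine-rich cells are given as description only, since the 4 chemokines also chose these cells. Xcl1 stood at 4169 CPM in control and 1681 CPM in knockout chemokine-rich cells, Ccl3 at 4496 and 2498 CPM, and Ccl4 at 23596 and 14879 CPM. Ccl1 was at 5964 and 5435 CPM, and its direction changed with the limit. It was at 4421 and 3589 CPM with 10 UMIs and at 8147 and 9522 CPM with 50 UMIs. Rgs16, a brake on chemokine receptor signalling, stood at 348 and 73.3 CPM there, and Penk, the precursor of enkephalin peptides, at 1337 and 513 CPM. Genes that antigen receptor signals induce differed in direction: Nr4a1 was at 449 and 488 CPM, Nr4a3 at 56.8 and 79.9 CPM, Cd69 at 400 and 708 CPM, Egr2 at 275 and 231 CPM, Irf4 at 21.8 and 8.88 CPM and Myc at 52.9 and 28.9 CPM. Ifng was at 2191 and 2622 CPM, and Gzmb was higher in the knockout, at 557 and 1330 CPM. A single knockout cell of the library held 479 Ifng UMIs. Whether it lies in this group was not examined, so no direction is read for Ifng here. Outside these cells Ccl3 was at 34.7 and 34.3 CPM and Xcl1 at 42.4 and 53.0 CPM. Ccl4 was at 375 and 246 CPM there. Since the limit caps these 4 genes in the remaining cells, nothing is read from how close those levels are.

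**Figure D2:**
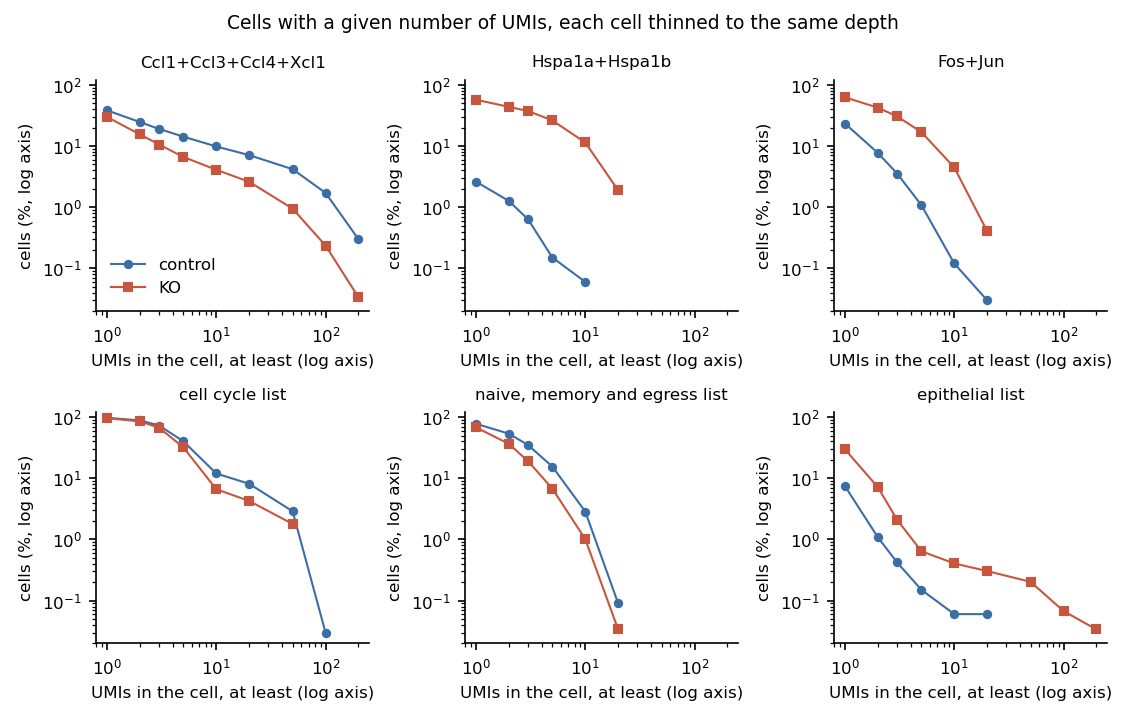
Percent of T cells with at least a given number of UMIs of a gene group or gene, after thinning each cell to 1500 UMIs (3325 control and 2960 knockout cells), with the number of UMIs on the horizontal axis and both axes logarithmic. The knockout line for the 4 chemokines runs below the control line, with 2.60% against 7.10% of cells at 20 or more UMIs.

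The Th1 programme of the transferred cells was present in both libraries. Tbx21, which encodes the Th1 master regulator T-bet, stood at 72.5 CPM (67.7 to 77.6) in control and 73.6 CPM (68.2 to 79.2) in knockout cells, a ratio of 1.01 (0.916 to 1.12). Ifng (ENSMUSG00000055170, chr10:118441046-118445892), the signature Th1 cytokine, stood at 522 CPM (509 to 536) and 327 CPM (316 to 339), 1.60-fold lower in the knockout (1.53 to 1.67), with 479 of the 3120 knockout UMIs in 1 cell. After thinning it was seen in 27.9% and 20.03% of cells, and in none of the 39 reference epithelial cells. Bhlhe40, a factor that supports cytokine production in Th1 cells, stood at 381 and 233 CPM, and Cxcr3, the Th1 homing receptor, at 267 and 190 CPM. Of the 18 measured Th1 genes, 8 were higher in the knockout, none differed by 2-fold, and the median log2 ratio was -0.12. The list therefore lay close to the median over all genes, with Bhlhe40 and Ifng at its lower end.

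Of the granzymes, Gzma was lower in the knockout and Gzmb was not. Gzma, a granzyme of intraepithelial T cells, stood at 4600 CPM (4561 to 4639) and 3451 CPM (3414 to 3489), 1.33-fold lower in the knockout, and Gzmb at 703 and 760 CPM, 1.08-fold higher. After thinning, 53.0% of control and 37.9% of knockout cells had a Gzma UMI, against 2 of 39 reference epithelial cells, and the positive cells held nearly the same amount, 11.4 and 11.6 UMIs. Hence for Gzma the gap lay in the share of cells and not in the level per positive cell. Cd160, a receptor of intraepithelial lymphocytes, stood at 393 CPM (382 to 405) and 232 CPM (222 to 242), 1.70-fold lower, and was seen in 35.7% and 21.5% of thinned cells. Of the 17 measured cytotoxic genes, 4 were higher, with a median log2 ratio of -0.25. The 4 were Lamp1, Gzmb and the lectin receptors Klrc1 (127 and 151 CPM) and Klrk1 (111 and 158 CPM).

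Cytokines tied to IL-23 were at low counts, and for Il17a and Il22 most UMIs came from 1 cell of a library. Il17a gave 142 UMIs in control and 90 UMIs in knockout cells, of which the richest control cell alone held 79. Il22, which drives epithelial defence, stood at 16.1 and 29.8 CPM (186 and 284 UMIs), but 169 of the knockout UMIs came from 1 cell, and the share of cells with a UMI was 1.01% in control and 0.941% in knockout. Il2 stood at 26.0 and 42.6 CPM, with 43 UMIs in the richest knockout cell. Csf2 gave 13 UMIs in 11 control cells and 58 UMIs in 45 knockout cells, a ratio of 5.41 (2.93 to 10.8). Il10 gave 6 UMIs in each library, and Foxp3, which marks regulatory T cells, 23 UMIs in control and 3 UMIs in knockout. Of the 11 measured Th17 genes, 3 were higher in the knockout and none differed by 2-fold, with a median log2 ratio of -0.15. Of the 10 measured T cell cytokines, 6 were higher, with a median of 0.18, whereas their summed level was 1.30-fold lower, at 2094 and 1610 CPM, with Ifng and Ltb as the members furthest down.

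Genes that let T cells leave tissue or that mark less differentiated T cells were lower in the knockout. S1pr1, the receptor T cells use to exit along sphingosine-1-phosphate, stood at 49.8 CPM (45.8 to 54.0) in control and 19.7 CPM (17.0 to 22.7) in knockout cells, 2.53-fold lower (2.14 to 3.0). Klf2 (ENSMUSG00000055148, chr8:72319033-72321656), the factor that drives S1pr1, stood at 504 CPM (491 to 517) and 252 CPM (242 to 262), 2.0-fold lower (1.91 to 2.10). Satb1, a chromatin organiser of T cells, was 2.39-fold lower, at 98 and 41.1 CPM. Ly6c2, whose reads are uncertain because its neighbour Ly6c1 is nearly identical, stood at 30.6 and 11.8 CPM. Of the 11 measured genes of the naive, memory and egress list, 1 was higher (Bcl2, 103 and 121 CPM) and these 4 were at least 2-fold lower. The list's median log2 ratio was -0.64 and its summed level was 1.52-fold lower. Tcf7, Foxo1 and Cd27, which mark memory potential, were near level at log2 ratios of -0.12, -0.06 and -0.00. After thinning, Klf2 was seen in 29.4% of control and 15.5% of knockout cells, and S1pr1 in 6.95% and 3.18%, against 2 and 0 of the 39 reference epithelial cells.

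S100a4 and its relatives were also lower. S100a4 (ENSMUSG00000001020, chr3:90603771-90606045), a calcium-binding protein of motile effector cells, stood at 740 CPM (724 to 756) in control and 289 CPM (278 to 300) in knockout cells, 2.56-fold lower (2.45 to 2.67). It was seen in 51.8% and 22.4% of thinned cells, against 1 of the 39 reference epithelial cells, while positive cells held 2.01 and 1.80 UMIs. S100a6 was at 2584 and 1618 CPM and Vim, a filament protein of migrating cells, at 1195 and 820 CPM. Of the 15 measured S100, annexin and galectin genes, 1 was higher (S100a11) and 1 was at least 2-fold lower, with a median log2 ratio of -0.17.

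Residency genes had gaps in both directions. Itgae stood at 201 CPM (193 to 209) and 167 CPM (159 to 176), 1.20-fold lower in the knockout, and Cd69, which holds T cells in tissue by opposing S1pr1, at 461 and 530 CPM. Itga4, a chain of the gut homing integrin, was at 98.2 and 59.1 CPM and Gpr18, a receptor of intraepithelial lymphocytes, at 158 and 81.0 CPM. Of the 27 measured genes of tissue residency, 8 were higher, with a median log2 ratio of -0.16. The list holds Xcl1, its only member past 2-fold. Co-inhibitory receptors were near level: Pdcd1 was at 73.5 and 75.8 CPM, Lag3 at 201 and 195 CPM and Ctla4 at 87.8 and 93.4 CPM. Of the 9 measured co-inhibitory genes, 5 were higher, with a median log2 ratio of 0.04, which the alternative scalings turn to below 0. Tox, a nuclear factor of chronically stimulated T cells, was the one past 2-fold, at 13.3 and 31.8 CPM, 2.39-fold higher (1.96 to 2.92).

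Several further genes on the lower side had sizes like those of the chemokines. Penk stood at 228 CPM (219 to 237) and 72.8 CPM (67.5 to 78.5), 3.13-fold lower (2.88 to 3.41), and Rgs16 at 48.6 and 16.1 CPM, 3.01-fold lower. Ass1, an enzyme on the path from citrulline to arginine, stood at 223 CPM (214 to 231) and 82.7 CPM (77.0 to 88.7), 2.69-fold lower. Dusp2, a phosphatase that switches off MAP kinases in activated T cells, stood at 607 CPM (593 to 621) and 258 CPM (248 to 268), 2.35-fold lower, and was seen in 46.5% and 24.1% of thinned cells. Esm1 was at 39.3 and 12.4 CPM, and Slc16a3, a lactate exporter, at 28.6 and 11.7 CPM. Among costimulatory receptors Icos was at 233 and 138 CPM and Tnfrsf25 at 27.4 and 13.4 CPM. Of the 12 measured costimulatory genes, 2 were higher, with a median log2 ratio of -0.09.

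Every measured cell cycle gene was lower in the knockout library, with small gaps each. Of 36 measured genes 0 were higher and none was 2-fold lower, and the median log2 ratio was -0.52. The list summed to 6912 CPM in control and 5033 CPM in knockout cells, 1.37-fold lower. The mitotic cyclins led: Ccna2 stood at 63.7 and 34.3 CPM and Ccnb2 at 78.1 and 42.7 CPM, and Mki67, a marker of dividing cells, at 42.9 CPM (39.2 to 46.8) and 25.3 CPM (22.2 to 28.7). Mcm3 and Mcm4, parts of the replication helicase, lay closest to level, with Mcm3 at 62.0 and 60.1 CPM and Mcm4 at 57.8 CPM in both. Under both alternative scalings the median stayed below 0. After thinning, Mki67 was seen in 3.40% of control and 1.93% of knockout cells, against 5 of the 39 reference epithelial cells, and it is not read as a share of dividing T cells.

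On the higher side, the heat shock protein 70 genes had ratios in the range of those of the epithelial genes. Hspa1a (ENSMUSG00000091971, chr17:34969190-34972156), an inducible chaperone, stood at 28.9 CPM (25.9 to 32.1) in control and 1989 CPM (1960 to 2017) in knockout cells, 68.9-fold higher (61.8 to 77.0). Its near-identical neighbour Hspa1b stood at 1.38 CPM (0.791 to 2.25) and 87.1 CPM (81.3 to 93.2), and the split of reads between the pair is uncertain. Dnajb1, a cochaperone of HSP70, stood at 89.7 CPM (84.3 to 95.4) and 477 CPM (464 to 491), 5.32-fold higher (4.97 to 5.70), and Dnajb4 at 14.2 and 28.7 CPM, 2.03-fold higher. Of the 20 measured heat shock genes 13 were higher and these 4 were at least 2-fold higher, against a background of 0.838%. The median log2 ratio was only 0.07, and it came to 0.01 with trimmed-mean scaling and -0.01 with median-ratio scaling, so no direction is given for the list. The list's summed level was 1.44-fold higher, at 6490 and 9337 CPM. The HSP90 genes lay between, with Hsp90aa1 at 288 and 539 CPM and Hsp90ab1 at 835 and 1255 CPM. The constitutive Hspa8 (2931 and 2602 CPM), the endoplasmic reticulum chaperone Hspa5 (log2 ratio -0.16) and Hsph1 (38.3 and 40.5 CPM) were near level or lower.

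The upstream sequences of these chaperones are shown because genes with the same kind of motif differed so unequally. Heat shock factor binds inverted repeats of GAA, here searched as GAANNTTC and TTCNNGAA, each of which reads the same on both strands and can overlap the other. In the 250 bases upstream of RefSeq start sites (GRCm38.p6), 6.69% of 32851 windows held the former, 7.17% the latter and 12.8% either. Of the 23 heat shock genes 19 were matched by symbol, and 10 of these held a match in any of their windows, as did 14.5% of all 27025 genes. The stretches below are written 5′ to 3′ along the gene's strand, with the match in capitals.
Hspa1a, chr17:34972242-34972271, minus strand: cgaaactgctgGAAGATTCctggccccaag
Hspa1b, chr17:34959324-34959353, minus strand: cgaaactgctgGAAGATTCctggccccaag
Dnajb4, chr3:152193846-152193870, minus strand: ttcgttcgctgTTCTAGAAagtaca
Hsph1, chr5:149636351-149636380, minus strand: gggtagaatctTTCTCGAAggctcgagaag
Fkbp4, chr6:128438789-128438818, minus strand: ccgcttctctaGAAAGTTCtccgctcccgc
Dnaja1, chr4:40722333-40722362, plus strand: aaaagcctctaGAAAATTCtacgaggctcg
The Hspa1a and Hspa1b stretches were identical, with the match beginning 104 bases upstream of each start. Hsph1, Fkbp4 and Dnaja1 also held a match, at log2 ratios of 0.08, -0.00 and 0.07, whereas Dnajb1, at 2.40, held none in either of its 2 windows. A match describes letters only and is no evidence of a bound site.

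The HSP70 difference was spread over many T cells. After thinning, 2.41% of control cells (1.91 to 2.99%) and 54.3% of knockout cells (52.5 to 56.1%) had an Hspa1a UMI, and the positive cells held 2.17 and 5.91 UMIs. Without thinning the shares were 3.15% and 60.3%. In the knockout library 17 of the 39 reference epithelial cells (43.6%) had an Hspa1a UMI, and their level was 1083 CPM against 1989 CPM in the T cells. Epithelial cells can make Hspa1a themselves, so no cell type here serves as one that lacks it, and the part of free RNA was not tested. Dnajb1 was seen in 13.3% of control and 36.6% of knockout cells, and in 10 of the 39 reference cells.

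Fos and Jun, which encode parts of the AP-1 transcription factor, were higher in the knockout library, as was Fosb at a lower level. Junb, Jund, Fosl2 and Batf of that family were not or less so. Fos (ENSMUSG00000021250, chr12:85473890-85477273) stood at 120 CPM (114 to 127) in control and 762 CPM (745 to 780) in knockout cells, 6.33-fold higher (5.98 to 6.71). Jun (ENSMUSG00000052684, chr4:95049034-95052222), its partner in the AP-1 dimer, stood at 131 CPM (125 to 138) and 664 CPM (648 to 681), 5.06-fold higher (4.78 to 5.35). Dusp1, a phosphatase induced by stress and by MAP kinase signals, stood at 245 and 497 CPM, 2.03-fold higher, and Klf6 at 329 and 585 CPM. Fosb, with a mean just under 20 CPM and so outside the measured genes, was at 2.42 and 36.7 CPM. Junb stood at 1920 and 2174 CPM and Jund at 1661 and 2133 CPM, Fosl2 was near level at 13 and 12.7 CPM, and Batf was lower at 172 and 128 CPM. Other genes that antigen receptor signals induce did not follow: Nr4a1 was at 87.0 and 66.3 CPM, Egr2 at 38.9 and 21.6 CPM, Egr1 at 32.2 and 36.7 CPM and Rgs1 at 2703 and 2027 CPM. Of the 21 measured immediate early genes, 13 were higher, 3 were at least 2-fold higher (Fos, Jun and Dusp1) and 1 at least 2-fold lower (Dusp2), with a median log2 ratio of 0.18. Fos was seen in 11.9% of control and 42.9% of knockout T cells after thinning, and in 18 of the 39 reference epithelial cells of the knockout (46.2%), whose level was 707 CPM. Since the reference share was no lower, the knockout share is not read as the fraction of T cells that express Fos.

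Knockout cells with more HSP70 transcript also had more Fos and less Ccl4. Thinned knockout cells with 0, 1 to 4, and 5 or more HSP70 UMIs (Hspa1a and Hspa1b together; 1270, 915 and 775 cells) had Fos at 568, 764 and 1353 CPM. Ccl4 stood at 1265, 701 and 485 CPM in the same order, and the summed cell cycle list at 3976, 3797 and 2930 CPM. Xcl1, at 157, 71.4 and 108 CPM, and Klf2, at 210, 197 and 395 CPM, did not fall step by step. Ifng stood at 335, 278 and 241 CPM. Which bin holds the knockout cell with 479 Ifng UMIs was not examined, so no direction is read for Ifng. These bins were set after the values were seen. When only cells without an HSP70 UMI were compared (3238 control and 1270 knockout cells), Ccl4 was 2.32-fold lower in the knockout, Xcl1 2.61-fold, Ccl3 2.42-fold and Ccl1 1.44-fold lower. Klf2 was 2.64-fold lower and S100a4 2.63-fold lower in those cells, while Fos was 4.48-fold and Jun 3.74-fold higher. The lower chemokine, Klf2 and S100a4 levels and the higher Fos and Jun levels were thus also present in cells without detected HSP70. Dnajb1 was still 3.38-fold higher in the knockout there, at 95.7 and 323 CPM. A cell without an HSP70 UMI is therefore not shown to lack heat shock transcripts, and whether the gaps go with them was not tested.

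Among other genes on the higher side, all chosen after their values were seen, the nuclear long noncoding RNA Malat1 stood out by amount. It stood at 14999 CPM (14928 to 15069) and 30105 CPM (29995 to 30215), 2.01-fold higher in the knockout, and a thinned cell held a mean of 25.6 and 49.8 Malat1 UMIs. Its level in the reference epithelial cells of the knockout was 24587 CPM. Asb2, a ubiquitin ligase component of T helper cells, stood at 210 and 489 CPM, Phlda1 at 40.0 and 114 CPM, Errfi1, a feedback inhibitor of EGF receptor signalling, at 14.9 and 44.1 CPM, and Rhob at 17.5 and 47.3 CPM.

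In some large gene groups most members were higher by small amounts. Of the 14 measured genes of MHC class I and the proteasome, 13 were higher, with a median log2 ratio of 0.24, and H2-K1 stood at 2041 and 2605 CPM. Of the 16 measured cholesterol synthesis genes, 15 were higher, with a median of 0.22, and Msmo1 stood at 50.4 and 75 CPM. Of the 28 measured interferon-stimulated genes, 19 were higher, with a median of 0.11, and Ifi27l2a stood at 180 and 331 CPM, whereas Ifitm3 was lower at 266 and 164 CPM. Of the 35 nuclear genes of oxidative phosphorylation, 27 were higher, with a median of 0.16. On the other side, 3 of 18 glycolysis and hypoxia genes were higher (median -0.18), 11 of 52 cytosolic ribosomal protein genes (median -0.07) and 1 of 10 TGF-beta feedback genes (median -0.26). No member of these lists apart from Slc16a3 reached a 2-fold difference.

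**Figure D3:**
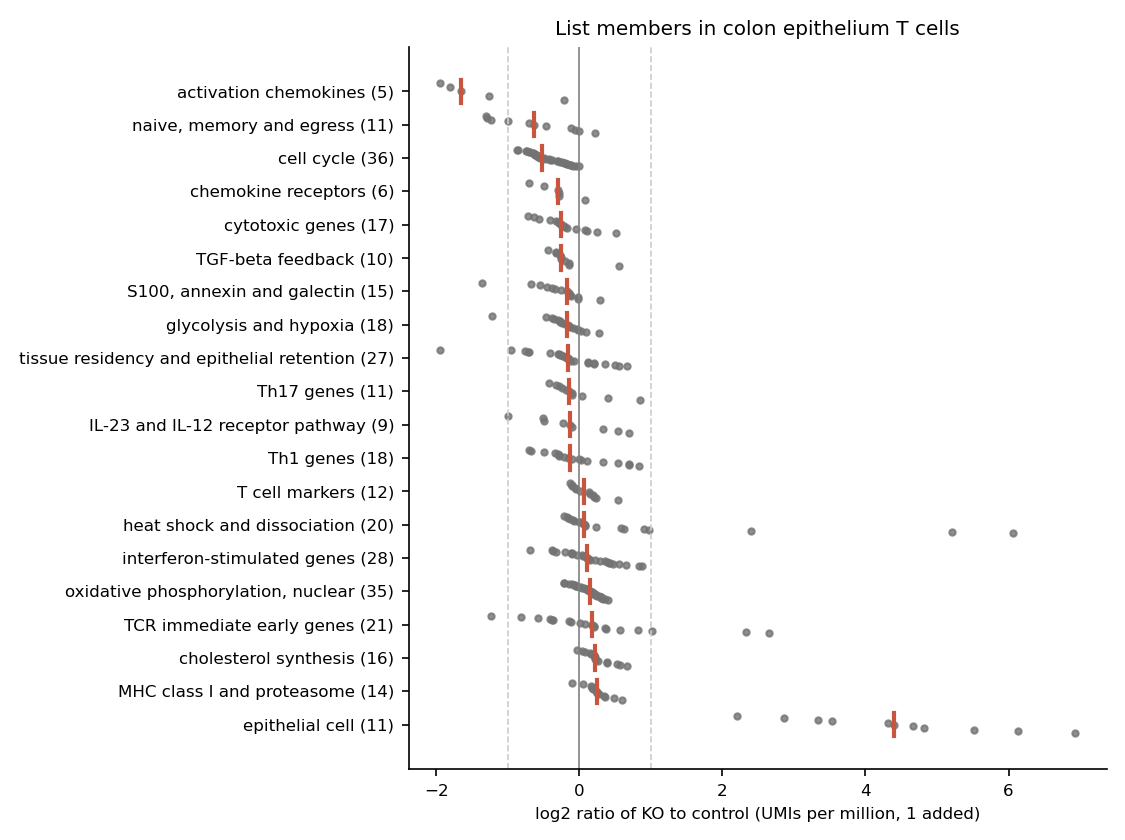
Log2 ratio of knockout to control for each measured gene (mean of 20 CPM or more) by gene list, with 1 point per gene and a bar at the list's median. The activation chemokines have their median at -1.66, the cell cycle list at -0.52 with every gene below 0, and the epithelial list at 4.39.

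Transcripts of epithelial cells lay mainly in the knockout library. Of the 29 epithelial genes, 11 were measured and all 11 were at least 2-fold higher, against a background of 0.838%, with a median log2 ratio of 4.39. Reg3b, an antibacterial lectin of the gut lining, stood at 4.67 CPM in control and 691 CPM in knockout cells, Krt8, a keratin of simple epithelia, at 4.24 and 132 CPM, and Epcam, an adhesion protein of epithelial cells, at 1.90 and 56.7 CPM. The list's sum was 25.2-fold higher. Of this, 58.1% came from 1 knockout cell with 77379 UMIs, 7170 genes, 6 CD3 UMIs and 10622 epithelial UMIs. Without that cell the knockout sum was 811 CPM and the ratio 10.7. Cells with 10 or more epithelial UMIs numbered 2 in control and 19 in knockout and held 87.9% of the knockout's epithelial UMIs. Without them the sums were 60.03 and 238 CPM, a ratio of 3.96. At least 1 epithelial UMI was seen in 14.6% of control and 43.9% of knockout T cells, and in 7.43% and 29.7% after thinning.

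With the 2 and 19 epithelial-rich cells removed, a choice made after seeing the data, 22 genes were at least 2-fold higher in place of 43. The 12 largest higher genes then included Hspa1a, Hspa1b, Mptx1, Fos, Dnajb1, Jun, Errfi1, Phlda1, Asb2, Rhob and Tox, and the 12 largest lower genes were the same as before. H2-Aa, an MHC class II chain, turned from a log2 ratio of 1.43 to -0.47. Of its 306 knockout UMIs 64 lay in 1 cell.

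A small set of kept knockout cells did not look like CD4 T cells. The signalling adaptors Tyrobp and Fcer1g, typical of natural killer and myeloid cells, together gave 5 or more UMIs in 19 knockout cells (0.576%, 0.347 to 0.899%) and in 0 of 3653 control cells (0 to 0.101%). A count of 3 control cells would be 0.0821% of the total. This limit was chosen after the values were seen, and the lowest of the 19 cells had 11 such UMIs. All 19 had a Cd3g UMI, but 7 had a Cd3d UMI and 2 a Cd3e UMI, against 94.8% and 92.7% of the other knockout cells. None of the 19 had Cd28 and 6 had Cd4, whereas 18 had the lectin receptor Klrd1, 17 had Cd7 and 5 had Ncr1, a natural killer receptor seen in 0.0305% of the other cells. Of the 19 cells 14 had Itgae and 9 had Xcl1, 2 had Ifng, and 3 were among the epithelial-rich cells. Such cells were found in 7 of the 10 other libraries, at 0.109% to 2.36% of kept cells. The shares in the first spleen pair (0.792% in control and 2.36% in knockout) were above that of the knockout epithelium, and the first colon lamina propria control was level with it at 0.578%.

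The other tissues of the series did not share 1 pattern of difference with the epithelium. Over the same 5131 genes, Spearman's rho between the epithelial log2 ratios and those of another pair was 0.49 for the colon lamina propria pair of the same batch, 0.41 for the small intestine pair, 0.17 and 0.07 for the second and first spleen pairs, and -0.22 for the colon lamina propria pair of the first batch. These values describe genes, which are not independent, and the labels do not say what the libraries of 1 batch have in common. The 2 colon lamina propria pairs, the only gut comparison with a repeat, thus lay on opposite sides of 0. In the small intestine pair the CD3 rule kept 2069 of 2250 control cells (92.0%) but only 813 of 1606 knockout cells (50.6%). Hspa1a was higher in the knockout in all 5 other pairs, at log2 ratios of 6.84 and 0.13 in the colon lamina propria (second and first batch), 4.10 in the small intestine and 4.55 and 1.67 in the spleen. Its level also differed between control libraries, with 857 and 37.6 CPM in the colon lamina propria controls of the first and second batch. Fos was at 1.23, 0.44, 1.95, 0.04 and 0.85 in that order of pairs.

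Ccl1, Ccl3 and Ccl4 were higher in both epithelial libraries than in any other library. Xcl1, Ccl3 and Ccl4 were lower in the knockout only in the epithelium and in the first colon lamina propria pair, and higher in the other 4 pairs. Ccl1 was at -1.26 in the epithelium, 1.17 and -1.04 in the colon lamina propria (second and first batch), -1.88 in the small intestine and -0.40 and 0.99 in the spleen. Ccl4 stood at 30.8 to 384 CPM in the 10 other libraries, against 2956 and 937 CPM in the epithelium. Xcl1 stood at 5.37 to 193 CPM elsewhere, a range that holds the knockout epithelium's 130 CPM. The log2 ratio of Xcl1 was -1.94 in the epithelium, 1.13 and -0.74 in the colon lamina propria (second and first batch), 1.07 in the small intestine and 2.54 and 2.33 in the spleen. Ccl3 was at 1.09, -0.73, 0.93, 1.53 and 0.14 in these pairs, against -1.81 in the epithelium. Whether these directions differ beyond the spread between animals was not tested.

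S100a4 and the egress genes did not hold 1 direction either. S100a4 was at -1.09 and 0.40 in the colon lamina propria and at -1.96 in the small intestine, against -1.35 in the epithelium. Klf2 was at -0.96 and -0.30 in the colon lamina propria and at 0.55 in the small intestine, against -1.0. Gzma was at -1.47 and 0.16 in the colon lamina propria, -2.21 in the small intestine and -2.59 and 0.30 in the spleen, against -0.41. The cell cycle median was -0.53 and 0.26 in the colon lamina propria and -1.07 in the small intestine, against -0.52. For S100a4, Gzma and the cell cycle list, the gut pairs of the second batch lay below 0 and the pair of the first batch above.

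**Figure D4:**
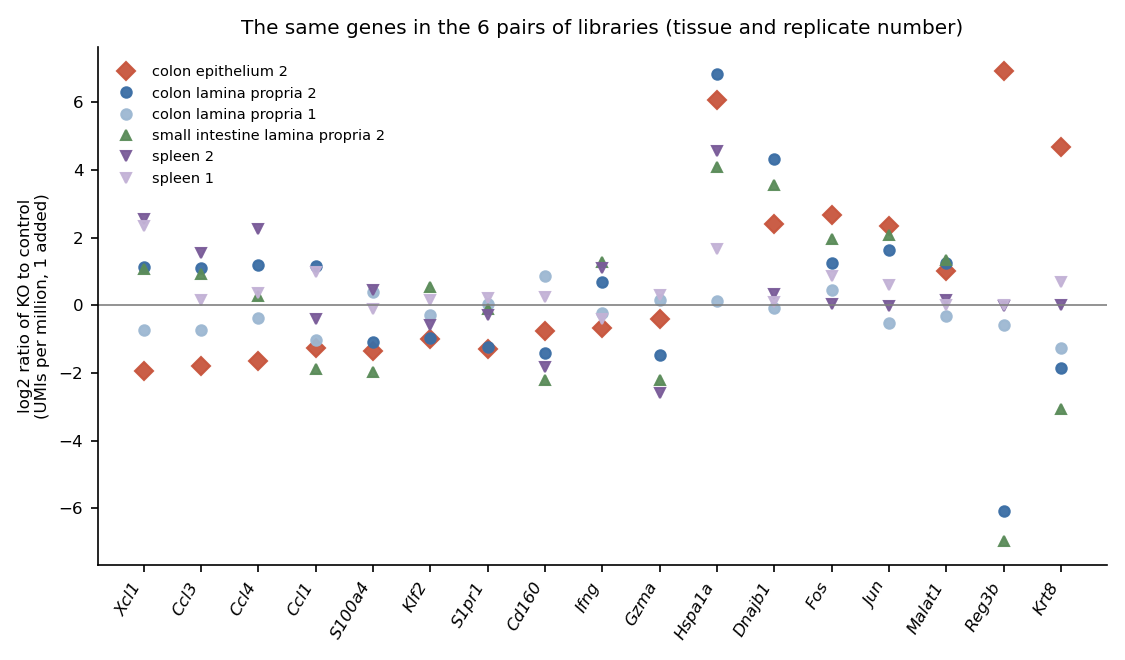
Log2 ratio of knockout to control for selected genes in the colon epithelium pair and the 5 other tissue pairs, with 1 point per pair. Hspa1a lies above 0 in every pair, whereas Xcl1 lies at -1.94 in the epithelium and at 1.07 in the small intestine.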

How the data were processed

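Deposited were UMI counts per gene and cell for 12 libraries in 1 matrix, with a cell table that names each cell's sample and batch. The authors made these counts from 10x Chromium 3′ v2 libraries (per the labels' protocols) with Cell Ranger 2.0.2 and the mm10 build (per the submitters' processing notes). The lamina propria dissociation kit was used for the intestinal T cells, per the labels' protocols. The authors' cell filters and any doublet removal are not given in the sources used here. No doublet caller was run; leaving out the 5% of cells with the most UMIs stands in as an alternative.

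Counts of the kept cells (3 or more CD3 UMIs) were summed per library and divided by their total. Ratios were formed from CPM, and log2 ratios after adding 1 CPM. Genes with a mean of 20 CPM or more entered the lists and counts. For shares of cells, each cell was thinned to 1500 UMIs, which left out 328 control (8.98%) and 336 knockout cells (10.2%). With 1 library per genotype no test was made. The labels do not say whether libraries came from separate animals, or whether the tissues of a batch came from the same recipients.

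Genes were named by rule: a set of core Th1, IL-23 and chemokine genes, the 12 largest differences each way (leaving out predicted genes, receptor segments and sex-linked genes), and up to 4 members of each list. The members and lists were chosen with earlier results of these data known. Coordinates came from GENCODE for GRCm38 (18508 of 18601 genes matched by gene ID), promoter sequences from RefSeq. Python 3.11.15 was used, and edgeR 4.0.16 only for trimmed-mean scaling factors (0.98 and 1.02) as an alternative. The ratios, their intervals and the 2-fold calls were checked on simulated summed counts. Alternatives covered the CD3 limit, other cell types, mitochondrial share, depth, scaling, pseudocount, the CPM minimum and the fold limit. A few genes that the rule names are not reported here.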

Additional observations from a re-analysis of the deposited data

Results flagged for a closer look

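Xcl1 had a log2 ratio of -1.94 in the colon epithelium but 1.07 in the small intestine and 2.54 and 2.33 in the spleen, the opposite direction in each of these pairs. Rgs16 was at -1.53 in the epithelium and 1.91 in the small intestine. Epithelial genes also pointed opposite ways in the T cells of different tissues. Krt8 was at 4.67 in the epithelium, -3.05 in the small intestine and -1.85 and -1.25 in the colon lamina propria. Pigr was at 5.54, -3.24, and -2.17 and -2.06 in the same order. Reg3b was at 6.93 in the epithelium and -6.98 in the small intestine, Reg3g at 6.13 and -4.85, and Muc3 at 6.37 and -1.03. Each direction rests on 1 or 2 pairs of libraries, and the differences between tissues were not tested.

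The cells that the CD3 rule left out, which enter no comparison, held epithelial RNA at a summed 36172 CPM in the knockout library (156 cells) and 13000 CPM in the control library (58 cells).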

How the results depend on the processing

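No paired analysis was possible because the genotypes have 1 epithelial library each and share only 1 replicate number. The cell rule kept 99.6% of control and 97.7% of knockout cells with a CD3 minimum of 1, 93.6% and 91.2% with 5, and 94.8% and 93.2% after thinning, and 96.6% of knockout cells when cells rich in mitochondrial UMIs were left out first. The 43 genes at least 2-fold higher became 65 with a CD3 minimum of 1, 81 with no CD3 rule, 28 without cells carrying other cell types' markers, without the deepest 5% of cells or after thinning, and 27 with a mean over cells. They became 162 and 10 with a minimum of 5 and 100 CPM, and 139 at 1.5-fold. The 29 lower genes became 57 and 10 with those minimums and 123 at 1.5-fold. Leaving out cells carrying other cell types' markers (2 or more UMIs) kept only 2049 of 3653 control and 1607 of 3296 knockout cells. Removing cells with 10 or more epithelial UMIs left 22 higher genes and removing cells with any, which zeroes the epithelial list, left 24. Both were added after seeing the data, as was removing the 19 Tyrobp and Fcer1g cells, which moved no named gene's call.

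The epithelial median of 4.39 became 4.94 and 3.14 with a CD3 minimum of 1 and 5, 1.10 without cells carrying other types' markers, 1.92 without the deepest cells, 2.37 after thinning, 2.34 with a mean over cells and 3.60 with a pseudocount of 5 CPM. It was 1.93 without cells of 10 or more epithelial UMIs and 0.00 without any such UMI. The 0.00 was fixed in advance, since that setting leaves every gene of the list at 0 in both libraries. The 1.10 and 1.93 also come from removing cells by these same genes, so nothing is read from the fall. The chemokine median of -1.66 became -1.27 without other types' cells, -1.74 without the deepest cells, -1.51 with a mean over cells, -1.74 with median-ratio scaling and -1.47 without any epithelial UMI. The immediate early median of 0.18 became 0.10 without the deepest cells and 0.10 after thinning. H2-Aa, at 1.43, reversed to -0.30 without the deepest cells, -0.47 without epithelial-rich cells and -0.24 without any epithelial UMI. Of the 33 named genes past 2-fold, 27 to 33 stayed past it in the same direction under each setting. The 27 came from removing cells with any epithelial UMI, which puts the epithelial genes at 0 by construction. Scaling moved the median of all genes by -0.06 and -0.08. At this depth Il23r and Il10 gave too few UMIs for a direction.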
